A study of Canis lupus familiaris with 4 samples.

Results

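Broad sites of adjoining peaks are places where 3 or more peaks of accessible chromatin follow each other with midpoints at most 1 kb apart. They were chosen by position alone, on chromosomes 1 to 38, and chains that lay inside a longer chain of 8 or more peaks joined at 5 kb or less were left out. The rule found 2010 of the 59081 peaks in the table, in 634 sites on 37 of the 38 numbered chromosomes. The peaks come from MDCKII (Madine Darby canine kidney type II), a wild-type epithelial line of the dog kidney that forms polarised monolayers. One group held 2 ATAC-seq libraries (A and B) of monolayers grown for 7 d to maturity. The other held 2 libraries (A and B) of cells taken from such monolayers by detachment and then reseeded for 2 h. ATAC-seq counts the places where the transposase Tn5 could insert adapters into open DNA, and the comparison asks which sites were more or less open once cells had left a mature monolayer and begun to attach again.

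In most cells an active promoter or enhancer keeps a short stretch of DNA free of nucleosomes, and such a stretch is commonly seen as a single ATAC-seq peak. Several peaks side by side can mark a wide promoter, a promoter with an enhancer next to it, or enhancers that lie close together. Detachment breaks the contacts of an epithelial cell with its neighbours and with the matrix below, and a reseeded cell has to attach and spread before it can rebuild a monolayer. The gene annotation at hand describes another dog assembly, so no site was placed on a gene, the line was not checked against marker genes, and no DNA sequence of the build CanFam3.1 was used here.

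Counts in all peaks totalled 6253706 to 8759513 in the mature and 16906566 to 24015663 in the reseeded libraries. A count of 3, taken as the floor, equals 0.125 to 0.48 CPM (counts per 1000000 counts in peaks). Whether A and B of a group are separate cultures is not said in the labels. The p-values therefore rest on how much these particular libraries differ, and that spread may be technical. The sample names carry a leading code that differs between the groups, so anything that followed that code cannot be told apart from reseeding. The cells were measured in bulk, where fewer cells with a site open and a less open site in each cell cannot be told apart.

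Most broad sites were as small as the rule allows. Of the 634 sites, 544 had 3 peaks, 75 had 4, 12 had 5 and 3 had 6. Spans ran from 1510 to 4378 bp with a median of 1946 bp. Every peak was 501 bp wide and no neighbours overlapped, so no position lay in 2 peaks. Whether a read that reached into 2 peaks was counted in both was not checked. Midpoints of neighbours were 502 to 1000 bp apart with a median of 692 bp, and 28.1% of the 1376 gaps were at most 600 bp against 14.2% over 900 bp. All 2010 peaks passed the filter on low counts. None of them was at or under 3 counts in both libraries of a group.

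Broad sites held a smaller share of all counts after reseeding. Their peaks took 5.21% and 5.23% of the counts of mature libraries A and B, and 4.00% and 4.01% of those of reseeded libraries A and B. The groups did not overlap, and their means differed by -1.22 percentage points (5.22% ± 0.00992 against 4.00% ± 0.00969, mean ± SD, n = 2 per group). An exact 2-sided permutation test over the libraries gave p = 0.333, the smallest that 2 against 2 libraries allow. The median site had 74.5 and 72.2 CPM, summed over its peaks, in mature A and B and 55.5 and 55.2 CPM in reseeded A and B. CPM values here and below are scaled with trimmed-mean factors (TMM).

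With the counts of each site summed, 455 of the 634 sites fell after reseeding, 102 rose and 77 did not pass the test (edgeR's quasi-likelihood test over all 52263 loci, adjusted p under 0.05, where a locus is a chain of peaks at most 1 kb apart or a single peak). Among all loci 41.8% were called lower and 43.2% higher (85.0% in either direction), against 71.8% and 16.1% of the broad sites. The median log2 fold of a site, reseeded over mature, was -0.45, against 0.02 over all loci. Most of the falls were mild. Called differences under 2-fold made up 432 sites, with a median log2 fold of -0.47. A called fall of at least 2-fold, a 2-fold loss from here on, was found at 89 sites (14.0%), close to the 14.5% of all loci. A called rise of at least 2-fold, a 2-fold gain, was found at 36 sites (5.68%) against 27.5% of all loci. The middle 80% of sites ran from a log2 fold of -1.23 to 0.48, and the same range over all loci was -1.32 to 2.02. Groups did not overlap in CPM at 603 sites (95.1%), against 91.9% of all loci.

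**Figure D1:**
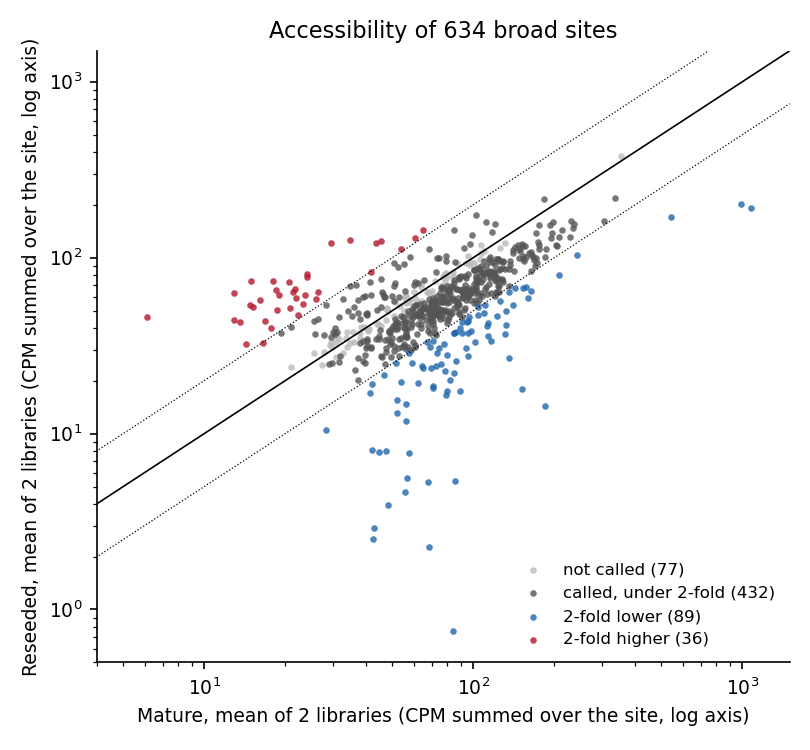
Each point is 1 of 634 broad sites, with its CPM summed over its peaks in mature cells on the x axis and in reseeded cells on the y axis (means of 2 libraries, both axes log), coloured by the test on the site sum. The solid line marks equal values and the dotted lines 2-fold differences, and most points lie just below the solid line, with 89 2-fold losses and 36 2-fold gains.

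How the site sums were scaled mattered for this count, and in the scalings tried 1 stood apart. DESeq2 size factors, upper-quartile factors and library size alone gave median site log2 folds of -0.46, -0.40 and -0.36, and over all loci these medians were -0.0025, 0.06 and 0.10. Loess offsets, which remove any trend of the fold with the mean level, gave 226 sites higher and 253 lower, so that 47.2% of the calls were higher in place of 18.3%. The median log2 fold was then -0.036 for the sites and -0.10 for all loci, 8.5% of sites were 2-fold gains and 8.0% 2-fold losses, and the shares over all loci were 16.5% and 16.3%. A site sums at least 3 peaks, and its median mature level was 73.0 CPM against 11.2 CPM at single peaks. Whether level had a part in the loess result was not tested. Fitted peak by peak, where a site peak and a single peak are the same width, loess offsets left 406 site peaks higher and 1144 lower, with a median log2 fold of -0.32 against -0.11 over all peaks. The 2-fold shares moved closer. With loess offsets 171 of the 2010 site peaks were 2-fold gains and 390 were 2-fold losses, against 16.5% and 16.4% of all peaks. With TMM 201 site peaks were 2-fold gains, against 26.9% of all peaks.

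Peak by peak, site peaks fell about 3 times as often as they rose. Of the 2010 peaks 1242 (61.8%) were called lower and 420 (20.9%) higher, and 348 were not called, where 41.8% of all 59076 tested peaks were lower and 42.3% higher (84.1% in either direction). There were 408 2-fold losses (20.3%) and 201 2-fold gains (10.0%), against 15.0% and 26.9% of all tested peaks. The median site peak had 19.0 and 18.9 CPM in mature A and B and 14.8 CPM in each reseeded library, a median log2 fold of -0.43 against -0.01 over all peaks. Site peaks stood between pairs and longer clusters. Pairs of peaks (9424 peaks) had a median log2 fold of -0.30 with 15.3% gains and 16.8% losses of 2-fold, and single peaks had 0.16 with 30.6% and 13.8%. In the 706 peaks of chains that lay inside longer clusters the median was -0.91, and the shares were 3.5% and 47.6%. The shares of the classes are set side by side here and their differences were not tested.

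**Figure D2:**
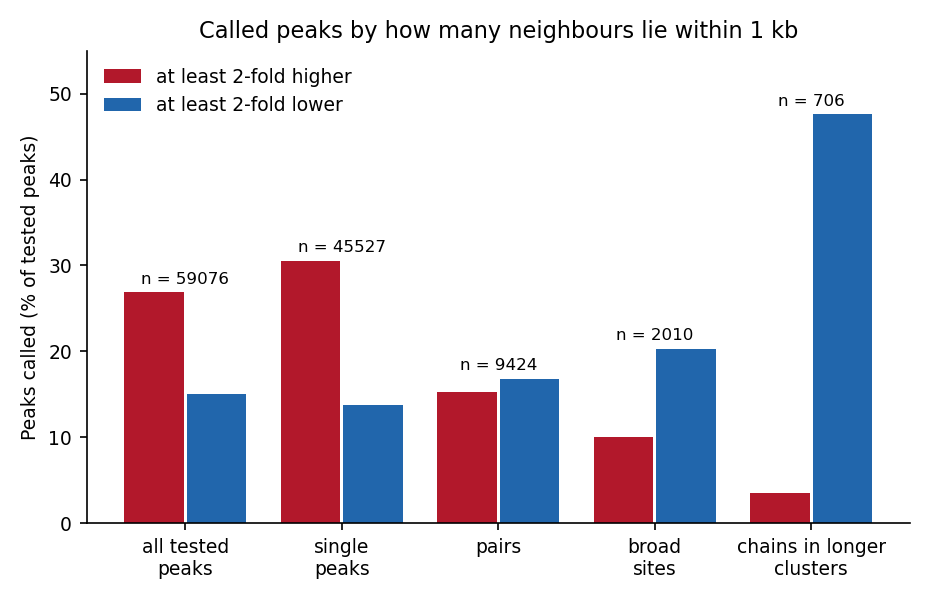
Bars give the percent of tested peaks with a 2-fold gain (red) or a 2-fold loss (blue) after reseeding, for all peaks, single peaks, pairs, peaks of broad sites and peaks of chains inside longer clusters. The share of gains went down from 30.6% at single peaks to 10.0% in broad sites and 3.5% in chains inside longer clusters.

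Site peaks were stronger than the median of all peaks, though in mature cells not than peaks of chains inside longer clusters (18.9 against 24.2 CPM), and the lower share of gains was seen at each level. All tested peaks were divided into quintiles by the mean of the mature and the reseeded mean CPM, and 655 site peaks lay in the highest quintile against 142 in the lowest. In the lowest quintile 26.1% of site peaks were 2-fold gains, against 52.7% of all peaks there, and 30.3% were 2-fold losses, against 15.8%. In the middle quintile the shares of gains were 9.6% and 24.0%, and those of losses 21.9% and 15.6%. At the top the shares were 6.0% and 9.5% for gains and 14.0% and 9.7% for losses. Median log2 folds of site peaks were 0.36, -0.40, -0.40, -0.40 and -0.49 from the lowest quintile to the highest, where all peaks had 1.09, 0.07, -0.08, -0.17 and -0.33. Few site peaks were close to closed in a state: 93 (4.6%) were under 5 CPM in mature cells and 175 (8.7%) in reseeded cells, against 19.7% and 8.1% of all tested peaks.

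**Figure D3:**
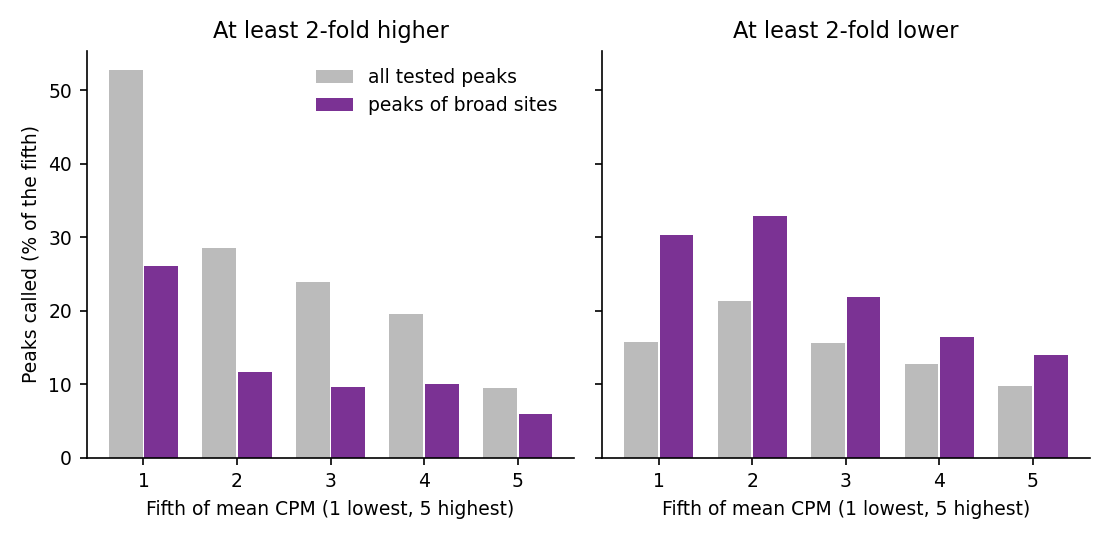
Bars give the percent of peaks with a 2-fold gain (left) and with a 2-fold loss (right) in each quintile of mean CPM, numbered 1 (lowest) to 5 (highest), for all tested peaks (grey) and peaks of broad sites (purple). In each quintile the purple bar is the shorter one among gains and the taller one among losses, for example 26.1% against 52.7% and 30.3% against 15.8% in the lowest.

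The largest losses took whole sites: at the 8 lowest sites each peak was a 2-fold loss. Choosing sites by the lowest summed folds favours this, so it adds no support. These 8 sites lay in 5 kb chains of 5 to 7 peaks, near the limit of 8 at which the rule leaves chains out. The 8 sites with the highest folds lay in 5 kb chains of 3 to 5 peaks. At chromosome 27 from 2946587 to 2948488 (CanFam3.1, 3 peaks), the site had 81.5 and 87.1 CPM in mature A and B and 0.859 and 0.650 CPM in reseeded A and B. This is a log2 fold of -6.82 (SE 0.14, edgeR adjusted p = 3.67e-31), a fall of 113-fold to 15 and 16 reseeded counts. Its peaks had log2 folds of -6.39, -7.22 and -6.68, and a test of unequal change among them, described further on, was not passed (adjusted p = 0.692). All 3 peaks of this site, which spans 1902 bp, were thus open in mature cells and near the counting floor in reseeded cells. The stretches between the peaks carry no counts here. Chromosome 7 from 10796739 to 10798976 held a similar site, with 73.2 and 63.3 CPM in the mature and 2.12 and 2.40 CPM in the reseeded libraries, a log2 fold of -4.91 (SE 0.12, edgeR adjusted p = 1.43e-28). Its 3 peaks fell with log2 folds of -4.40, -5.33 and -5.05. Neither pair of groups overlapped.

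Next in order were 6 sites with log2 folds of -4.05 to -3.59, again with each peak lost by 2-fold or more. They lay on chromosome 9 from 48537464 to 48539692, chromosome 13 from 37401730 to 37404033, chromosome 16 from 1237567 to 1239705, chromosome 38 from 74628 to 76896, chromosome 27 from 2230102 to 2231748 and, last, chromosome 10 from 30663405 to 30665549. The mature libraries disagreed at 3 of them. Mature A and B had 33.7 and 51.3 CPM at the chromosome 9 site, 74.6 and 96.0 CPM at the chromosome 13 site and 33.1 and 52.6 CPM at the chromosome 16 site, against at most 5.36 CPM in a reseeded library of any of these. At the chromosome 38 site the mature libraries had 190.0 and 178.7 CPM and the reseeded libraries 14.3 CPM each, and the 4 peaks fell unequally, with log2 folds from -5.37 to -3.16 (adjusted p for unequal change 7.13e-07).

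Over all 89 sites with a 2-fold loss, the median site had 83.2 and 83.0 CPM in mature A and B and 28.9 and 29.0 CPM in reseeded A and B. Each peak was called lower at 73 of these sites. Over all 634 sites, each peak was a 2-fold loss at 35. Only 13 of the 634 sites had all peaks under 5 CPM in reseeded cells. Mature B exceeded mature A by a log2 ratio over 0.3 at 15 of the 89 and at 5 of the 36 sites with a 2-fold gain, against 4 of the 432 sites called with a fold under 2, and the median ratio of the 89 was -0.02. Whether this disagreement has a part in the 2-fold calls was not tested beyond leaving out a library. There were 91 sites with a 2-fold loss without mature A and 92 without mature B.

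Gains were smaller and started from a low but detectable level. Chromosome 10 from 2450485 to 2452320 had the highest log2 fold, 2.94 (SE 0.13, edgeR adjusted p = 1.98e-21). Its sum was 5.10 and 7.16 CPM in mature A and B and 44.7 and 47.1 CPM in reseeded A and B. The 3 peaks rose together, with log2 folds of 3.07, 2.99 and 2.65, and the first of them carried most of the signal, at 29.8 and 30.4 CPM in the reseeded libraries. This was the 1 site of the 634 with all of its peaks under 5 CPM in mature cells. The groups were far apart at each peak. At chromosome 5 from 75429908 to 75431695 the sum rose from 13.3 and 16.4 CPM to 73.6 and 73.2 CPM (log2 fold 2.33, SE 0.10, edgeR adjusted p = 7.46e-22). Its 3 peaks rose too, with log2 folds of 2.57, 2.04 and 2.76.

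The next 6 gains had log2 folds of 2.27 to 1.85. They lay on chromosome 27 from 14981816 to 14983763, chromosome 30 from 29668886 to 29670470, chromosome 2 from 31378472 to 31380261, chromosome 4 from 43740677 to 43742422, chromosome 15 from 41878743 to 41880659 and, last, chromosome 14 from 60291690 to 60294006. Each peak was a 2-fold gain at 5 of them, and at the chromosome 30 site 2 of 3 peaks were, with log2 folds in the site from 0.88 to 3.45. The 36 sites with a 2-fold gain had a median of 19.9 and 22.1 CPM in mature A and B and 61.4 and 63.4 CPM in reseeded A and B. Each peak was called higher at 29 of the 36. Over all 634 sites, each peak was a 2-fold gain at 20.

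The strongest sites for their width were called lower after reseeding at 4 of 5, where 71.8% of all broad sites were called lower. Per kb of peak, chromosome 4 from 10463085 to 10464984 was highest, with 922 and 1222 CPM over its 3 peaks in mature A and B and 193 and 189 CPM in reseeded A and B (log2 fold -2.49, SE 0.09). Chromosome 1 from 60596137 to 60599992, which is also among the sites of 6 peaks, had 859 and 1118 CPM in the mature and 203 and 198 CPM in the reseeded libraries (log2 fold -2.30, SE 0.09). Its 6 peaks fell with log2 folds from -2.60 to -2.10 (adjusted p for unequal change 0.686). The mature libraries differed at both sites, mature B being higher, while the reseeded libraries were close. The log2 fold was -1.67 at chromosome 13 from 63237364 to 63239383, where mature A and B also differed, at 490 and 597 CPM. Under loess offsets the log2 folds at these sites of chromosomes 4, 1 and 13 were -1.61, -1.43 and -0.90. At chromosome 9 from 33135534 to 33137601 the log2 fold was -0.64, and 0.11 under loess offsets. The exception, not called here, was chromosome 7 from 43476620 to 43480110, whose 5 peaks summed to 358 and 351 CPM in the mature and 386 and 374 CPM in the reseeded libraries (log2 fold 0.10, SE 0.07, edgeR adjusted p = 0.165). Within it 2 peaks were 2-fold gains, and peak log2 folds ran from -0.55 to 1.67. This sum was called higher with upper-quartile factors (edgeR adjusted p = 0.0149), library size alone (0.00409) and voom in limma (0.0173), and loess offsets gave it a log2 fold of 0.93.

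The 5 sites with the most peaks were called lower too, as were 71.8% of all broad sites. Some of the 5 were lower through a part of their peaks. Chromosome 27 from 2218953 to 2223330, the widest, had 6 peaks and fell from 212 and 198 CPM to 117 and 116 CPM (log2 fold -0.82, SE 0.07), with 2-fold losses at 2 peaks and peak log2 folds from -3.05 to -0.13. Chromosome 1 from 110583610 to 110587779, also with 6 peaks, fell from 244 and 243 CPM to 100 and 105 CPM (log2 fold -1.24, SE 0.07), with 2-fold losses at 4 peaks and log2 folds from -2.56 to 0.69. Of the 2 named sites of 5 peaks that remain, chromosome 12 from 2533541 to 2537502 had a log2 fold of -0.67 and chromosome 17 from 49631678 to 49635379 one of -0.21. Both were called lower, and neither had a peak changed by 2-fold. The call on the chromosome 17 sum was lost without reseeded A (edgeR adjusted p = 0.198) and without reseeded B (0.0564). Under loess offsets the log2 folds of the chromosome 12 and 17 sites were -0.02 and 0.41. Those of the 6-peak sites on chromosome 27 and on chromosome 1 from 110583610 were -0.22 and -0.63. The 15 sites of 5 or 6 peaks had 13 lower calls, no higher call and a median log2 fold of -0.67, against -0.45 at 4 peaks and -0.44 at 3 peaks.

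The peaks of a site often changed by different amounts. The interaction of peak and state within a locus was tested with edgeR's diffSpliceDGE over all 5659 loci of 2 or more peaks, with Simes p-values adjusted over the loci. It called 477 of the 634 broad sites (75.2%), against 53.2% of all these loci. More peaks give more chances of a difference, and the shares were 73.3% at 3 peaks, 85.3% at 4 peaks and 49.3% at pairs. Chains inside longer clusters were called at a similar share, 143 of 179 (79.9%), and the differences between classes were not tested. The range of peak log2 folds in a site had a median of 1.04, was at least 1 at 330 sites and at least 2 at 130 sites. Calls of unequal change were about as frequent in the weakest sites (73.5%) as in the strongest (77.7%) when the sites were divided in 3 by level.

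Sites could therefore change in ways that their sum did not show. Each peak was called lower at 207 sites and each was called higher at 41, while 189 sites (29.8%) held called peaks in both directions. A further 154 sites had some peaks called lower and none higher, 38 had some called higher and none lower, and 5 had no called peak. Of the 509 sites whose sum was not called at 2-fold, 231 held at least 1 peak called at 2-fold or more. Of the 77 sites whose sum was not called at all, 64 were called for unequal change and 57 held called peaks in both directions. The same counts at other loci are not given here, and 84.1% of all tested peaks were called in either direction. These counts therefore cannot be read as particular to broad sites.

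**Figure D4:**
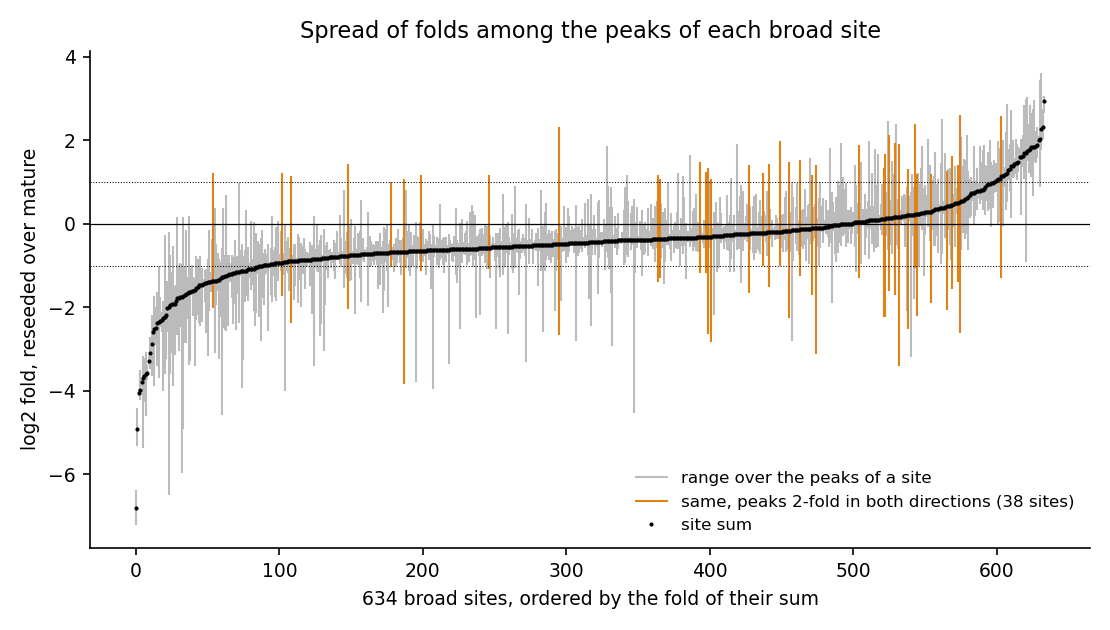
The 634 broad sites are ordered along the x axis by the log2 fold of their summed counts (black points), and each vertical line spans the lowest to the highest log2 fold among the peaks of that site. Orange lines mark the 38 sites with at least 1 peak 2-fold higher and 1 peak 2-fold lower, and most of these sites have sums between the dotted lines at 2-fold.

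In 38 sites a 2-fold gain and a 2-fold loss stood in the same site. These are 5.99% of the broad sites, where 2.35% of all 5659 loci of 2 or more peaks, 4712 of them pairs, held such a combination. They lay on 20 chromosomes, and the median range of log2 folds within them was 3.28. All 38 were called for unequal change, which adds no support, since the choice of these sites already sets peaks far apart in fold. By their sum 20 were lower, 10 were higher and 8 were not called, and 2 reached 2-fold.

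At chromosome 21 from 13350803 to 13353043 openness was gained at one end and lost at the other. The first peak, from 13350803 to 13351303, had 9.74 and 7.45 CPM in mature A and B and 33.6 and 32.6 CPM in reseeded A and B (log2 fold 1.91, SE 0.12). The middle peak, from 13351554 to 13352054, had 32.8 and 31.9 CPM in the mature and 27.5 and 25.5 CPM in the reseeded libraries (log2 fold -0.30, SE 0.09). The last peak, from 13352543 to 13353043, had 10.2 and 12.5 CPM in the mature and 0.934 and 1.15 CPM in the reseeded libraries (log2 fold -3.40, SE 0.29). Gain and loss were each far beyond the spread within a group, while the sum had 54.0 and 52.1 CPM in the mature and 60.9 and 58.7 CPM in the reseeded libraries (log2 fold 0.17, edgeR adjusted p = 0.0373). That call on the sum was lost without any 1 of the 4 libraries. The test of unequal change gave an adjusted p of 5.78e-13, though the site was chosen among those called by it.

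Chromosome 18 from 23110335 to 23112486 had its gain and its loss at neighbouring peaks. Its first peak rose from 4.41 and 5.18 CPM to 29.8 and 27.8 CPM (log2 fold 2.60, SE 0.14). The peak next to it, from 23111045 to 23111545, fell from 11.3 and 11.5 CPM to 1.98 and 1.72 CPM (log2 fold -2.62, SE 0.25). The third peak of the site had 15.1 and 14.9 CPM in mature and 16.7 and 14.9 CPM in reseeded cells (log2 fold 0.06, adjusted p = 0.619). The groups thus did not overlap at the first 2 peaks and overlapped at the third. At chromosome 4 from 10327398 to 10329973 the second of 4 peaks fell from 19.7 and 18.1 to 2.63 and 3.24 CPM (log2 fold -2.67, SE 0.17), while the last rose from 2.67 and 4.21 to 17.2 and 16.3 CPM (log2 fold 2.33, SE 0.18).

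At the remaining 3 sites of this kind that were picked for detail, chromosome 17 from 50996555 to 50999555 had both end peaks lower, with log2 folds of -3.81 and -3.84, the third peak lower as well, with -1.59, and the second peak higher, with 1.09. The mature libraries disagreed at its ends (8.0 and 14.6 CPM at the first peak, 9.86 and 15.9 CPM at the last), but both were above the reseeded libraries, which had at most 0.992 CPM there. Chromosome 17 from 36839820 to 36843268 had neighbours with log2 folds of 1.40 (SE 0.12) and -3.13 (SE 0.20) at its far end, and a sum that did not pass the test (log2 fold -0.10, edgeR adjusted p = 0.159). Chromosome 32 from 11623038 to 11626034 had a first peak higher and a last peak lower, with log2 folds of 1.33 and -2.64, and 2 peaks between them with 0.16 and -0.30. The sums of the last 2 sites turned positive under loess offsets (0.39 and 0.12).

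**Figure D5:**
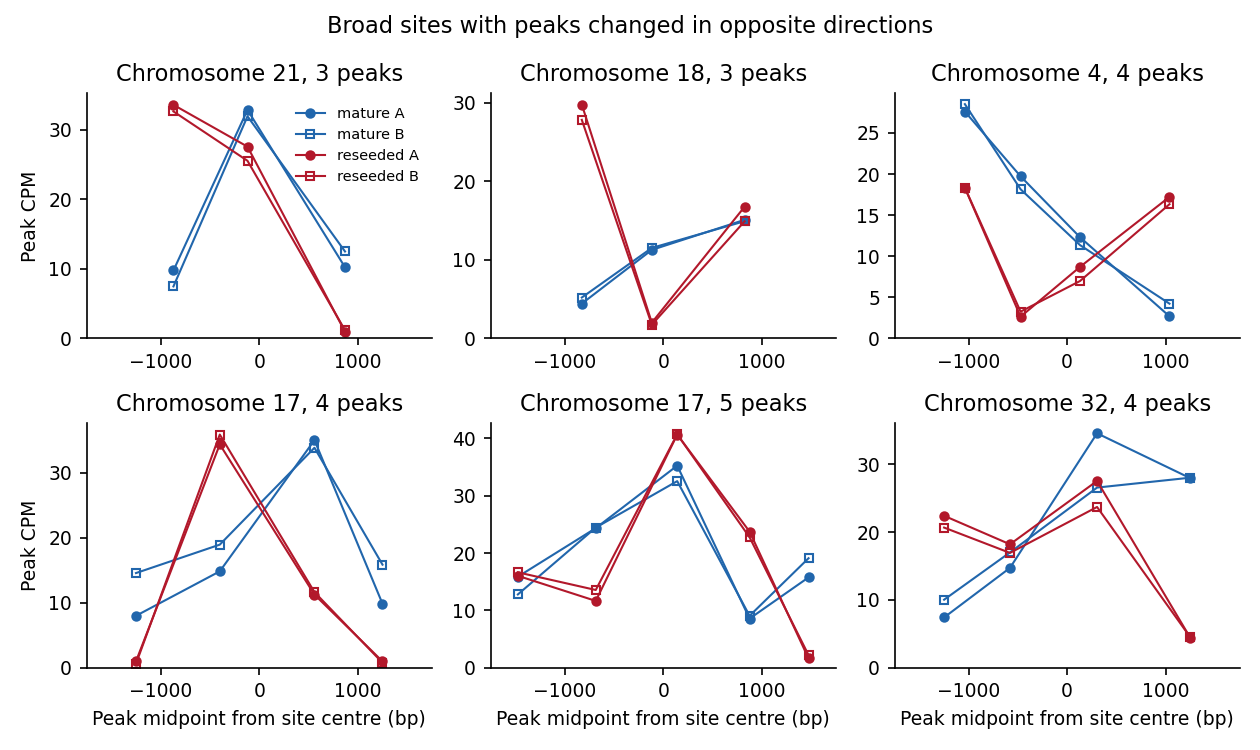
Each panel is a broad site with peaks changed in opposite directions, with the distance of each peak's midpoint from the site centre on the x axis and its CPM in each of the 4 libraries on the y axis (mature in blue, reseeded in red, A filled, B open). The lines of a state mostly lie close together, though mature A and B differ at the ends of the chromosome 17 site from 50996555. Lines of the mature and reseeded states cross, as at the chromosome 21 site, where the first peak is higher and the last lower in reseeded cells.

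The strongest peak of a site changed its place at 121 sites. Both mature libraries named the same strongest peak at 581 of 634 sites and both reseeded libraries at 600, and both held at 556. In 435 of these the strongest peak was the same in both states, and in 121 (21.8%) it was another one. With all libraries thinned to the shallowest total the count was 119. No such count at other loci is given here, so it cannot be read as particular to broad sites. The new strongest peak was at an end in place of the inside at 47 of the 121, inside in place of an end at 36 and at the opposite end at 33. Unequal change, which a change of strongest peak favours, was called at 113 of the 121, and the sum was a 2-fold gain or loss at 37. The strongest peak of a 3-peak site, whichever it was, held a median of 51.4% and 50.2% of the site's counts in mature A and B and 50.8% and 50.6% in reseeded A and B.

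Middle peaks were lower more often than end peaks. In the 544 sites of 3 peaks, 381 middle peaks (70.0%) were called lower and 92 (16.9%) higher, with a median log2 fold of -0.50. The end peaks at the lower coordinate had 290 (53.3%) lower and 145 (26.7%) higher calls with a median of -0.31, and those at the higher coordinate had 336 (61.8%) and 114 (21.0%) with -0.43. The middle peak took 39.9% and 39.4% of the counts of these sites in mature A and B and 37.7% and 37.6% in reseeded A and B, groups that did not overlap (exact 2-sided permutation p = 0.333, the smallest possible here). Site by site this was a weak tendency, as the middle fell below the mean of the ends in log2 fold at 326 of 544 sites (59.9%), with a median difference of -0.14 and middle quartiles from -0.58 to 0.27. Middle peaks were also the stronger ones, with a median of 21.8 CPM in mature cells against 16.9 and 17.4 CPM at the ends, and the part of level in this was not tested.

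Neighbours in a site changed most alike at the shortest spacing. Across the 1376 neighbour pairs of broad sites, which share libraries and DNA and are not independent, Pearson's r of the log2 folds was 0.56, and 74.6% of pairs had the same sign. At gaps of at most 600 bp r was 0.67, 80.1% had the same sign and the median difference was 0.45 (386 pairs). From 900 to 1000 bp r was 0.51, 71.8% had the same sign and the median difference was 0.63 (195 pairs). The bins between had an r of 0.48 to 0.55. Pairs of peaks outside the sites had an r of 0.64 and 0.44 in the shortest and the longest bin. The ends of the 3-peak sites had an r of 0.41 and the same sign in 67.5%.

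Peaks just outside a site moved with it more closely the nearer they lay, up to about 5 kb. The nearest other peak lay 1 to 2 kb from the last midpoint of the site at 148 sites, and across these r between site and neighbour was 0.53. It was 0.45 at 2 to 5 kb (188 sites), 0.11 at 5 to 20 kb (231 sites) and 0.13 beyond (67 sites). Median log2 folds of the sites were -0.50, -0.41, -0.45 and -0.47 in these bins, and those of the neighbours -0.39, -0.21, -0.07 and 0.40. The medians of the sites differed little between the bins, and 298 sites with no other peak within 5 kb had a median of -0.45 against -0.41 at the other 336. The shares of large changes differed more. 2-fold gains made up 7.7% of the 298 and 3.9% of the 336, and 2-fold losses 11.7% and 16.1%, differences that were not tested. Of the 89 sites with a 2-fold loss, the nearest neighbour was a 2-fold loss at 32 and a 2-fold gain at 10. At the 36 sites with a 2-fold gain it was a loss at 4 and a gain at 13, and over all 634 sites a loss at 106 and a gain at 144.

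The mild fall was seen on most chromosomes. Chromosome 9 had the most sites (58), followed by chromosomes 17 (51), 1 (45), 5 (35) and 6 (31), which together held 34.7% of the sites and 25.7% of the peaks on numbered chromosomes. Of the 20 chromosomes with at least 10 sites, 19 had a median site log2 fold below 0, and on all 20 it was below the median of all peaks of the chromosome. This sets summed sites beside peaks fitted singly, both scaled with TMM. With loess offsets the median over all sites was -0.036, above the -0.10 of all loci, and that scaling is not given by chromosome. Chromosome 23 was the exception above 0, with a median of 0.07 over 14 sites against 0.32 over all its peaks. Chromosome 1 had a median of -0.64, with 40 of its 45 sites lower and 2 higher. Chromosome 14 had no 2-fold loss among 26 sites, although 18 were lower, and chromosome 36 held no broad site.

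Among the strong sites a few sums moved little. In the top 10% of mean level, the 4 with the smallest absolute log2 folds were the chromosome 7 site from 43476620 and the chromosome 17 site from 49631678, both given above, chromosome 8 from 26592432 to 26595278, and another site of chromosome 17, from 36927089 to 36928749. The chromosome 8 site had 132 and 130 CPM in the mature and 119 and 122 CPM in the reseeded libraries (log2 fold -0.12, SE 0.07, edgeR adjusted p = 0.0857). At the chromosome 17 site from 36927089 the values were 119 and 132 CPM against 109 and 118 CPM (log2 fold -0.14, SE 0.07, edgeR adjusted p = 0.057). In both the groups came close to each other without overlapping. All 4 were called for unequal change among their peaks, as were 75.2% of all broad sites. At these 4 an even sum thus did not mean even peaks, but this cannot be read as particular to sites with even sums. Both sums lay near the threshold: the adjusted p was 0.0309 and 0.0222 with DESeq2 size factors and 0.0299 and 0.026 with voom in limma. Leaving out mature B gave 0.0383 for the first, and leaving out mature A gave 0.000679 for the second (log2 fold -0.23). Under loess offsets the log2 fold was 0.43 and 0.40.

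Values just inside and just outside the limits of the rule were close. The median over sites of the median peak log2 fold was -0.30 at the 145 sites of 3 peaks with a widest gap of 900 to 1000 bp, and -0.27 at 164 chains of 3 peaks with a widest gap just over 1000 and up to 1100 bp. It was -0.55 at 118 sites that lay in 5 kb chains of 6 or 7 peaks and -0.56 at 54 chains left out because they lay in 5 kb chains of 8 or 9 peaks.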

How the data were processed

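The authors deposited raw counts for 59081 peaks of 501 bp in 4 ATAC-seq libraries, whole numbers that are not normalized. Bowtie2, MACS2 and the build CanFam3.1 are named in the submitters' processing notes. Versions, the handling of duplicates and of reads with several alignments, and how a peak came into the table were not given in the sources used here. PCR copies may be counted, and they can raise counts in repeated sequence. Positions count from 1.

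Members and tests were chosen with earlier results of these data known. Counts passing filterByExpr (59076 peaks, 52263 loci) were fitted in R 4.3.3 with edgeR 4.0.16 (TMM, quasi-likelihood test, reseeded against mature, no block), with Benjamini-Hochberg adjustment over all peaks or all loci. 2-fold calls also need a fitted fold of 2. The SE comes from the log2 fold and its F statistic. Unequal change used diffSpliceDGE. The functions were tested on simulated data. Named sites are the 8 highest and 8 lowest folds among called sites whose mean count reached 50 and whose groups did not overlap, the 5 with most peaks, the 5 highest per kb of peak, the 6 with the widest opposite changes, and the 4 most equal in the top 10% of level. The level quintiles, spacing, neighbour, chromosome, middle and end comparisons were added after the data were seen. Alternatives were other scalings (DESeq2 size factors, upper-quartile, library size, loess), filters, DESeq2 1.42.0, voom in limma 3.58.1, stricter tests, a replicate block, left-out libraries, thinned counts and other chain limits.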

Additional observations from a re-analysis of the deposited data

How the results depend on the processing

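Of 203 alternatives for the main counts and values, 151 moved a count by less than 1.5 times, or a value by less than the spread of the libraries, with no change of sign. Loess offsets gave 226 sites higher, 253 lower and 51 at least 2-fold lower, with a median log2 fold of -0.036, and the cause was not tested. The median was -0.40 with upper-quartile factors and -0.36 by library size alone, because these shift all loci. A test against a fold of 1.5 left 244 peaks higher and 603 lower, and 53 sites higher and 178 lower, as small folds no longer pass. Other chain limits change which peaks are members. Joining at 750 bp (268 sites) gave 142 peaks higher and 569 lower (59 and 176 at least 2-fold), 36 sites higher and 206 lower (13 and 40), 181 with unequal change, 11 with opposite peaks, 48 with another strongest peak, a median of -0.50 and a difference in share of -0.543 points. Joining at 1500 bp (1324 sites) gave 1092 and 2526 peaks (545 and 871), 264 and 889 sites (82 and 181), 1091 unequal, 105 opposite, 305 with another strongest peak, a median of -0.41 and -2.03 points. Chains of 4 or more (90 sites) gave 69 and 235 peaks (20 and 95), 7 and 69 sites (2 and 13), 78 unequal, 8 opposite, 19 with another strongest peak and -0.313 points. With chains of longer clusters kept (813 sites), 744 peaks and 157 sites were at least 2-fold lower, with a median of -0.50 and -2.46 points. In these 4 sets 67.1% to 76.9% of sites were lower and 7.8% to 19.9% higher.

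Leaving out 1 library at a time gave the following ranges: 349 to 414 peaks were higher and 1146 to 1225 lower (at least 2-fold 183 to 217 and 412 to 423), and 85 to 102 sites were higher and 415 to 457 lower (33 to 38 and 89 to 92). Unequal change was then called at 361 to 465 sites and opposite peaks at 31 to 43, the median was -0.47 to -0.42 and the difference in share -1.23 to -1.21 points. The replicate block by library letter gave 99 sites higher, 453 lower and 480 with unequal change, and among the named sites it ended only the call on the sum at chromosome 21 from 13350803 (log2 fold 0.17). The letters did not show pairing, since the difference between A and B in 1 group had an r of 0.0314 with that in the other over all peaks and 0.12 over the sites. Of 429 alternatives for 33 named sites, 401 kept direction and threshold, 12 lost and 10 gained a call, and 6 reversed, each under loess offsets: chromosome 8 from 26592432 (0.43), chromosome 9 from 33135534 (0.11), chromosome 17 from 36839820 (0.39), from 36927089 (0.40) and from 49631678 (0.41) and chromosome 32 from 11623038 (0.12). The mature totals were the lowest and limit small folds.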
